A study of Mus musculus with 2 samples.

Results

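The 82 genes described here encode the proteins of the cytosolic ribosome. They are the protein-coding genes of the GENCODE M21 mouse annotation whose symbol is Rpl or Rps followed by digits and at most a pair of letters, with Rplp0, Rplp1, Rplp2 and Rpsa added, out of 21853 protein-coding genes on 21 chromosomes. The rule uses symbols and no measured value, although the group was proposed with earlier results of these data known. Of the 82, 50 belong to the large subunit, counting the stalk genes, and 32 to the small subunit, counting Rpsa. They are spread over 19 chromosomes, with 14 on chromosome 7 and 4 on the X chromosome, and 3 pairs lie within 50 kb of each other, among them Rps29 with Rpl36al and Rps2 with Rpl3l.

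Chromatin accessibility was measured by ATAC-seq, which marks open DNA by the insertion of sequencing adapters by a transposase. The samples were haematopoietic stem cells taken as primary cells from adult C57BL/6J mice of 5 to 6 weeks, in 1 group of 2 libraries labelled biological replicates 1 and 2, with no genotype, treatment or control group. Both libraries carry the same donor identifier, nothing in the labels says that they came from separate animals, and the sorting markers and the sex are not stated. The labels give 50000 cells for replicate 2 and no cell number for replicate 1. The files are lists of peaks on mm10, so read depth is unknown. Each peak has a summit and a signal, which is the authors' own value. The lists differ in length and were scaled in a way the sources used here do not give, so signals were ranked only within a list.

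Every cell needs ribosomes, and the genes of their proteins are transcribed at high rates in most cell types. Their messenger RNAs begin with a terminal oligopyrimidine (TOP) tract, a C followed by a run of pyrimidines, through which mTOR and Larp1 control their translation. Blood formation is sensitive to their dose: in humans, loss of 1 copy of several of them causes Diamond-Blackfan anaemia, and haematopoietic stem cells in mice are known to keep a low rate of protein synthesis.

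The labelled cell type was checked against marker genes. The conservative list holds peaks that pass the irreproducible discovery rate (IDR) threshold in the comparison of both replicates. In it, 6 of 10 stem and progenitor markers had a promoter peak, among them Kit and Cd34, against 51.9% of all protein-coding genes. Slamf1, Procr and Gata2 had none there, and Mecom had a signal of only 2.39 and was in neither replicate's IDR list. Replicate 1's IDR list held 4 of the 10 and replicate 2's held 5. Shares this near to that of all genes do not identify the cells. The gene of the Sca-1 antigen, Ly6a, lacked a promoter peak in every list of each library. Promoter peaks were present at 2 of 7 granulocyte and monocyte, 2 of 5 B cell, 1 of 5 T cell, 0 of 4 natural killer, 2 of 5 erythroid and 3 of 4 megakaryocyte markers. Their part in the results below was not tested.

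The sequences just before the start sites show the letters of ribosomal protein promoters with and without a peak. The 100 bases before the representative start site are given on the gene's own strand, 5′ to 3′, from RefSeq's GRCm38.p6 sequence. Capitals mark exact matches to CCGGAAG, the core bound by ETS factors such as GABPA, to AAGATGGC, a YY1 motif, and to the palindromic element bound by ZBTB33, whose inner bases are CTCGCGAG with T before and A after. The ZBTB33 element of Rps6 spans its start site and so lies partly outside the bases shown. Rpl15 lies at chr14:18271068-18271167 (-), Rps6 at chr4:86857413-86857512 (-), Rpl26 at chr11:68901483-68901582 (+) and Rps27 at chr3:90213652-90213751 (-), and all 4 had a promoter peak:
Rpl15: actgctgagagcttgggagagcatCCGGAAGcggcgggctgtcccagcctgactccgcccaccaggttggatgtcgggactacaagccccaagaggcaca
Rps6: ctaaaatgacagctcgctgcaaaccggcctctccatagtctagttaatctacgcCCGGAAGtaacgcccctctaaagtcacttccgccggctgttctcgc
Rpl26: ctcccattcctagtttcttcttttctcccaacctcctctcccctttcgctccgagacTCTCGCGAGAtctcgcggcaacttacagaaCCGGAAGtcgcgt
Rps27: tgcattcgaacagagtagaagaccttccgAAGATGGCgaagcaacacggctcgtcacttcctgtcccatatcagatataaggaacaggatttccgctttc

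The 4 shown above each carry a marked motif and do not stand for all members with a peak. Of the 78 members with a peak, 54 lacked the ETS core from 250 bp before to 50 bp after the start. The marks therefore do not separate members with and without a peak. The 4 members with no promoter peak follow, with Rpl39l at chr16:10170128-10170227 (+), Rps27rt at chr9:114982740-114982839 (-), Rpl10l at chr12:66284402-66284501 (-) and Rpl3l at chr17:24727720-24727819 (+):
Rpl39l: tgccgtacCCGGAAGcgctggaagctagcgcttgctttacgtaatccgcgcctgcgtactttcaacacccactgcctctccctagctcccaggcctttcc
Rps27rt: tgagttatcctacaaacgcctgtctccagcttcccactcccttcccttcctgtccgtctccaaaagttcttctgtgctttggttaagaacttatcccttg
Rpl10l: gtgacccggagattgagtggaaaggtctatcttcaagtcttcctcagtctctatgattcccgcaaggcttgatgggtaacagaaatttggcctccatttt
Rpl3l: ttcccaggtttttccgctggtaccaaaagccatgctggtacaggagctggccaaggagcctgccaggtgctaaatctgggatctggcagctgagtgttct

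Nearly all ribosomal protein genes had a promoter peak, and those that did are called open below. A promoter peak, defined as a summit within 1 kb of the start site of any protein-coding transcript, was present at 78 of 82 members (95.1%) in the conservative list, against 51.9% of all protein-coding genes. The large subunit had 47 of 50 and the small subunit 31 of 32. The same count of 78 was found in the longer IDR thresholded list of both replicates (56.4% of all genes), in the replicated list (65.1%), which holds peaks seen in each replicate, and in the pseudoreplicated list of both replicates (66.3%).

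The lists of each library gave nearly the same answer. In replicate 1, 78 members had a promoter peak in the IDR thresholded list (52.2% of all genes) and 78 in the more permissive pseudoreplicated list (63.5%). In replicate 2, 74 had one in the IDR thresholded list (45.8% of all genes) and 78 in the pseudoreplicated list (62%). Among the 4 open members that replicate 2's IDR list lacked were Rpl4, Rpl8 and Rpl36. Its pseudoreplicated list held them at signals of 6.65 for Rpl4, 5.97 for Rpl8 and 3.81 for Rpl36. That summit of Rpl4 lay at -476 bp from its start, beyond the start of the opposite-strand gene Zwilch, 271 bp upstream. In the conservative list the region at Rpl4's strongest summit also ended before its start, while in replicate 1 the strongest summit lay at 7 bp. The 74 in replicate 2's IDR list include Rps10, whose only summit there had a signal of 4.83 at -1976 bp from its representative start. Replicate 2's pseudoreplicated list held a stronger summit of Rps10 at 279 bp, with a signal of 6.21. No member was in replicate 2's IDR list only. Over all genes, 9706 had a promoter peak in both replicates' IDR lists, 1707 in replicate 1's only and 301 in replicate 2's only.

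**Figure D1:**
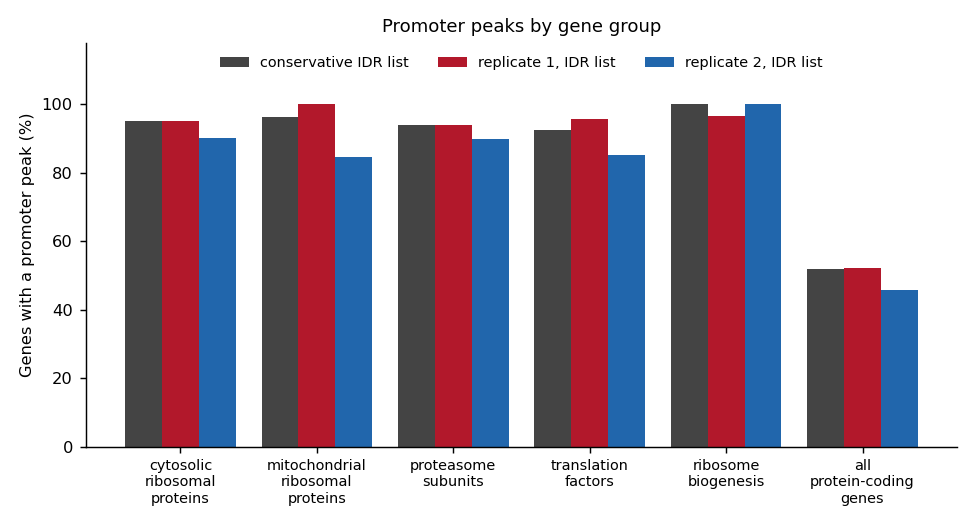
Share of genes with a promoter peak (%) for cytosolic ribosomal protein genes, 4 other gene groups of translation and protein turnover, and all protein-coding genes. Bars stand for the conservative IDR list and the IDR list of each replicate, and the ribosomal protein genes stand at 95.1% and all genes at 51.9% in the conservative list.

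Other gene groups that act in most cells had similar shares in the conservative list. Mitochondrial ribosomal protein genes had a promoter peak in 75 of 78 cases (96.2%), proteasome subunit genes in 47 of 50 (94%) and translation factor genes in 63 of 68 (92.6%). All 30 listed ribosome biogenesis genes had one, among them Las1l (16.57), which takes part in large subunit maturation, and Nop10 (5.39), a subunit of the H/ACA particles that modify ribosomal RNA. So had all 12 genes of the control of TOP mRNA translation, including Mtor (10.51), Rptor (14.20) and Larp1 (8.79). In replicate 1's IDR list 29 of the 30 and 12 of the 12 had one, the exception being Ubtf, a factor of RNA polymerase I transcription, which was in its pseudoreplicated list at 6.39. In replicate 2's IDR list 30 of the 30 and 11 of the 12 had one, the exception being Larp1, which was in its pseudoreplicated list at 5.59.

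The 4 members without a peak are paralogues of core genes. Rpl3l is the striated muscle paralogue of Rpl3, Rpl10l and Rpl39l are paralogues best known from the testis, and Rps27rt is a retrogene copy of Rps27. None of the 4 had a promoter peak in any of the 8 lists used. Distances were also taken to the strongest summit of each merged region in the pseudoreplicated list of both replicates. The nearest such summit lay 3383 bp from a start site of Rpl3l, 4315 bp from Rps27rt, 22631 bp from Rpl39l and 391190 bp from Rpl10l. Their parents were open: Rpl3 at a conservative signal of 11.14, Rpl10 at 9.29, Rpl39 at 10.99 and Rps27 at 8.89. Rps27rt and Rps27 share a run of 38 bases that begins at the annotated start of Rps27rt and 4 bases after that of Rps27. Rpl39l carried an ETS core before its start and had no peak.

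Paralogues that are expressed more widely were open. Rps27l, a target of p53, had a signal of 13.91 in replicate 1, 10.66 in replicate 2 and 13.01 in the conservative list. Rpl36al, a relative of Rpl36a, had 10.66, 8.54 and 10.28 in the same order. Of ribosomal protein genes that the symbol rule misses, those named here were open in every list examined: in the conservative list Rps3a1 had 11.12, Rpl22l1 11.18, Rpl7l1 10.80, Rack1 9.90 and Fau 7.35. Fau encodes a ribosomal protein fused to a ubiquitin-like protein, and Rack1 encodes a scaffold on the small subunit.

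Few retrocopies had a peak. Of 293 annotated pseudogenes named after cytosolic ribosomal proteins, 3 (1.02%) had a summit within 1 kb of their start in the conservative list, against 2.06% of all 10236 processed pseudogenes. The 3 were Rpl5-ps2 at 11.25, Rpl34-ps1 at 6.96 and Rpl29-ps2 at 18.53. Rpl29-ps2 starts 160 bp from the start site of a protein-coding gene, while the nearest such site is 7362 bp away for Rpl34-ps1 and 46791 bp away for Rpl5-ps2. A further 6 copies are annotated as protein-coding (Rpl10-ps3, Rpl36-ps4, Rpl36a-ps1, Rpl9-ps1, Rpl9-ps6 and Rps12-ps3), and none had a promoter peak in the conservative list or in any list of either replicate. Reads from near-identical copies cannot be assigned with certainty, so calls at members and copies alike carry that uncertainty.

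The signal at most open ribosomal protein promoters lay near the middle of all open promoters. The strongest promoter peak of the 78 open members had a median signal of 10.16 in the conservative list (quartiles 8.87 and 11.12, range 5.73 to 14.74), against 9.78 over all 11338 genes with a promoter peak (quartiles 7.68 and 11.86, highest 23.93). Of the 78, 58 lay between the 25th and the 75th percentile of all open promoters, 2 above the 90th and 2 below the 10th. In replicate 1's IDR list 55 of 78 lay in that middle range, 1 above the 90th and 1 below the 10th. In replicate 2's, 47 of 74 lay in it, 3 above the 90th and 6 below the 10th. The median member stood at percentile 54.9 in the conservative list, 57.0 in replicate 1's IDR list and 44.3 in replicate 2's. In replicate 1 the members' median was 11.36, against 10.79 over all open genes. In replicate 2 it was 7.67, against 8.0, so in the IDR lists the side on which the members fell differed between the libraries. In the pseudoreplicated lists the members' median was the higher in both, with 11.36 against 9.89 in replicate 1 and 7.62 against 6.99 in replicate 2. Those lists take in more genes with a promoter peak, 13886 against 11413 in replicate 1 and 13547 against 10007 in replicate 2. The members' own medians hardly changed, so the comparison depends on the list used. Other groups had conservative medians of 11.31 for mitochondrial ribosomal proteins, 10.96 for proteasome subunits, 10.56 for translation factors, 10.12 for ribosome biogenesis and 9.9 for the control of TOP mRNA translation, so they lay on both sides of the members' median.

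**Figure D2:**
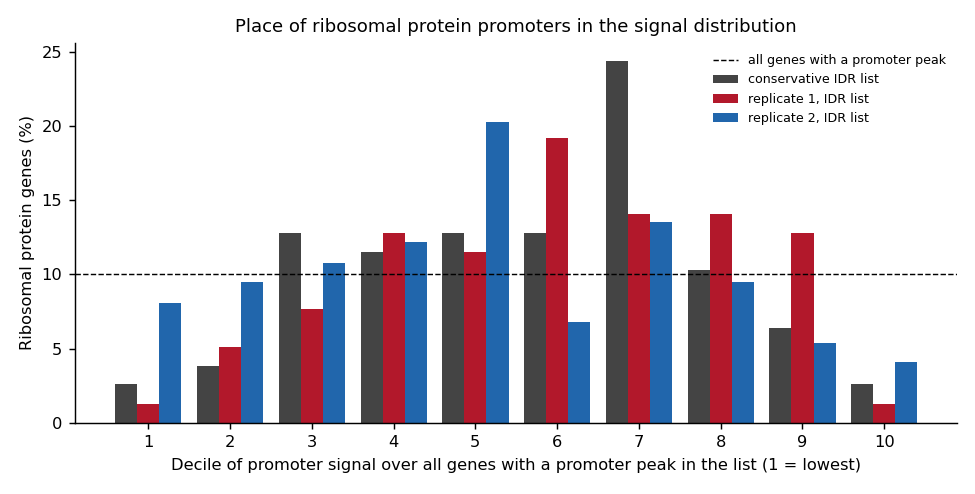
Share of open ribosomal protein genes (%) in each decile of promoter signal, with deciles set over all genes with a promoter peak in the same list. Bars stand for the conservative list and each replicate's IDR list, and the dashed line at 10% is where all open genes stand. The lowest and the highest decile each hold 2.6% of the members in the conservative list, against 8.1% and 4.1% in replicate 2's IDR list.

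The members of highest signal came from both subunits. Rpl31, a large subunit protein, led with 15.07 in replicate 1, 13.13 in replicate 2 and 14.74 in the conservative list. Rplp0, the base of the stalk that recruits translation factors, had 14.75 in replicate 1, 11.53 in replicate 2 and 14.07 in the conservative list. These were the only members above the 90th percentile of open promoters in the conservative list. High in that list were also Rpl27 (13.60), Rps4x (13.11), whose gene lies on the X chromosome, Rps27l (13.01), Rpl30 (12.54), Rpl15 (12.40), Rpl14 (12.32) and Rpl22 (12.29). Rpl22 encodes a large subunit protein required for the development of αβ T cells in mice. In replicate 2's own list Rpl31 and Rplp0 again stood first and second, followed by Rpl30 at 11.51.

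Among the members of lowest signal were Rpl36, Rpl7, Rpl10a, Rpl38 and Rpl13a. Rpl36 had 7.53 in replicate 1 and a conservative signal of 5.92. Rpl7, which had 5 summits in its promoter, had 7.73 in replicate 1, 5.16 in replicate 2 and 6.79 in the conservative list. The other 3 had conservative signals of 6.88 for Rpl10a, 6.93 for Rpl38, which in mice is needed for the translation of a subset of Hox mRNAs, and 7.26 for Rpl13a, which also acts as a translational silencer outside the ribosome.

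**Figure D3:**
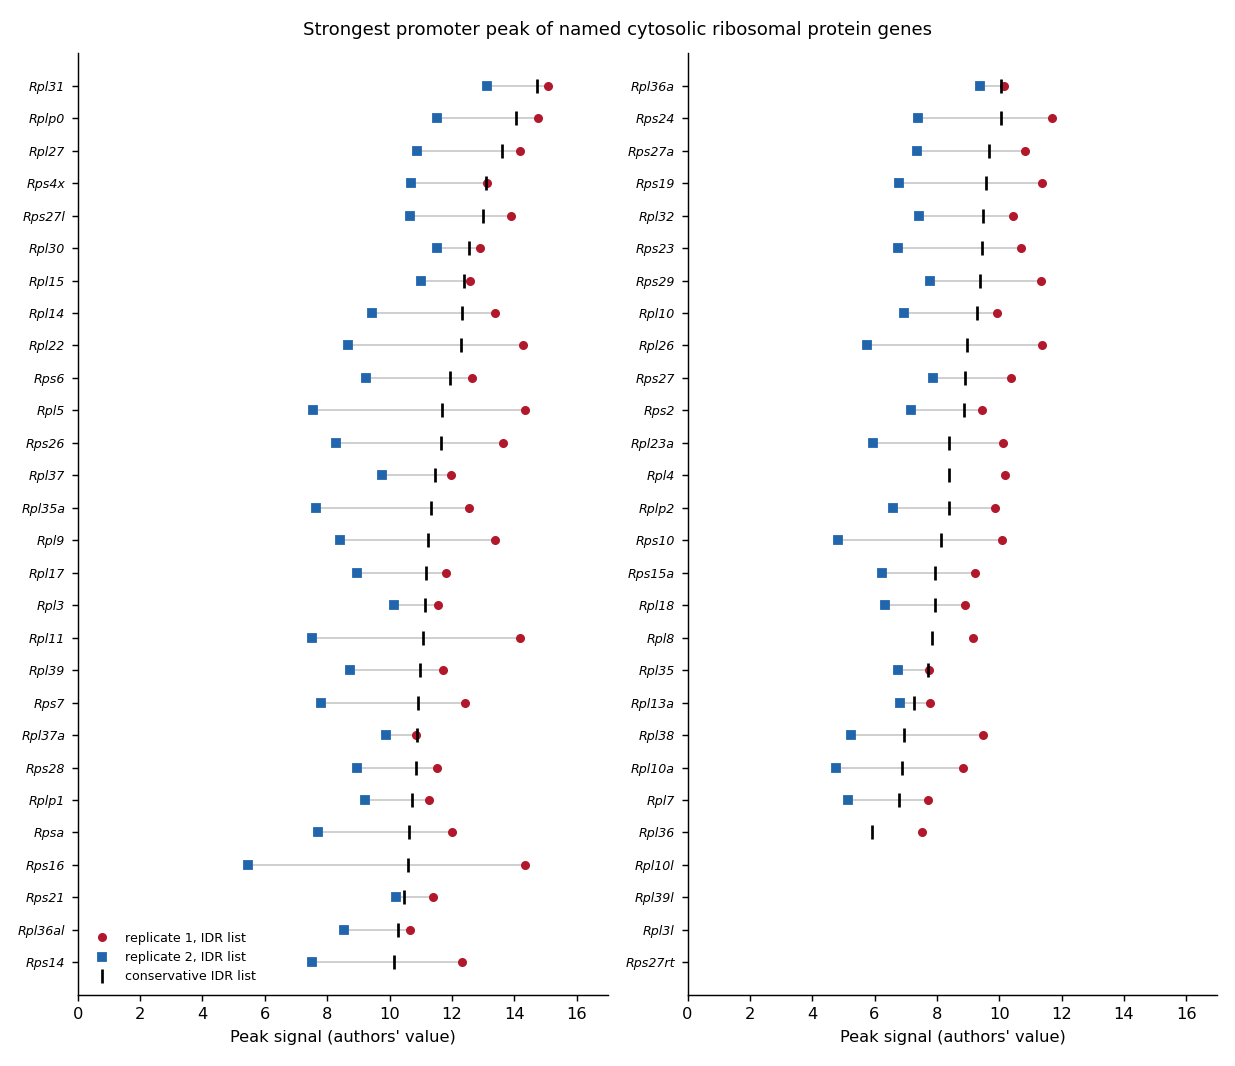
Signal of the strongest promoter peak (authors' value, linear axis) for the ribosomal protein genes named in the text, ordered by the conservative list. Circles are replicate 1's IDR list, squares replicate 2's and vertical ticks the conservative list; a gene with no symbol in a list has no promoter peak there, and the last 4 genes have none in any. Every gene with both values lies higher in replicate 1.

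The stalk genes and the Diamond-Blackfan genes were spread over this range, with Rplp0 and Rpl15 among the members of highest signal. The stalk partners Rplp1 and Rplp2, acidic proteins that dimerise on Rplp0, had conservative signals of 10.72 and 8.38. All 12 listed members whose human counterparts are mutated in Diamond-Blackfan anaemia were open, as were 95.1% of all members. Replicate 2's IDR list held 11 of the 12, against 74 of all 82 members. The 12 had a median conservative signal of 10.50, against 10.16 over all open members. Among them were Rpl15 (12.40), Rpl5 (11.68), Rps26 (11.64), Rpl35a (11.32), Rpl11 (11.07), Rps7 (10.92), Rps24 (10.07), Rps19 (9.58), Rps29 (9.39), Rpl26 (8.97) and Rps10 (8.12). Rps19, the gene most often affected in patients, had 11.38 in replicate 1 and 6.77 in replicate 2. Rpl5 and Rpl11, which bind Mdm2 together with a ribosomal RNA when assembly fails, had 14.34 and 14.19 in replicate 1 and 7.56 and 7.5 in replicate 2. Rps14, whose loss underlies the anaemia of the human chromosome 5q deletion, had 12.33 in replicate 1, 7.51 in replicate 2 and 10.13 in the conservative list.

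Members were not ranked identically in the replicates. Across the 74 members in both IDR lists, which share the same pair of libraries, the Spearman coefficient was 0.58, against 0.71 across all 9706 genes in both. The coefficients are not directly comparable, because members spanned a narrower range of signal (conservative quartiles 8.87 and 11.12, against 7.68 and 11.86 for all open genes). At Rps10 the paired values also came from summits 2197 bp apart. Replicate 1 had the higher value at all 74, as it did at 95.1% of all genes, with a median ratio of replicate 1 to replicate 2 of 1.45 for members and 1.35 for all genes. The ratio was largest for Rps16 at 2.62 (14.34 in replicate 1 and 5.47 in replicate 2) and smallest for Rpl36a at 1.08 (10.15 and 9.38). Since the scaling of the lists is not known, the ratio was not read as a change.

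The strongest summit sat close to the start site. In the conservative list it lay within 100 bp of the representative start at 60 of 78 open members (76.9%), against 54.0% of all open genes. The median position was 17 bp upstream for members (offset -17, quartiles -69 and 16.5) and 39 bp upstream for all open genes (offset -39, quartiles -115 and 26). The extremes among members were Rpl4 at -471 and Rpl35 at 449, and 8 members lay beyond 200 bp. Mitochondrial ribosomal protein genes (76.0%) and ribosome biogenesis genes (76.7%) had similar shares within 100 bp. Proteasome subunits had 70.2%, translation factors 55.6% and the control of TOP mRNA translation 33.3%. Between the replicates' IDR lists, the strongest summits of a member differed by a median of 15 bp and by at most 50 bp in 64 of 74 (86.5%), against a median of 19 bp and 79.5% for all genes. Rps10 was the widest exception, at 2197 bp: the replicate 2 summit had an offset of -1976 bp from the representative start, within 1 kb of another annotated start of the gene.

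**Figure D4:**
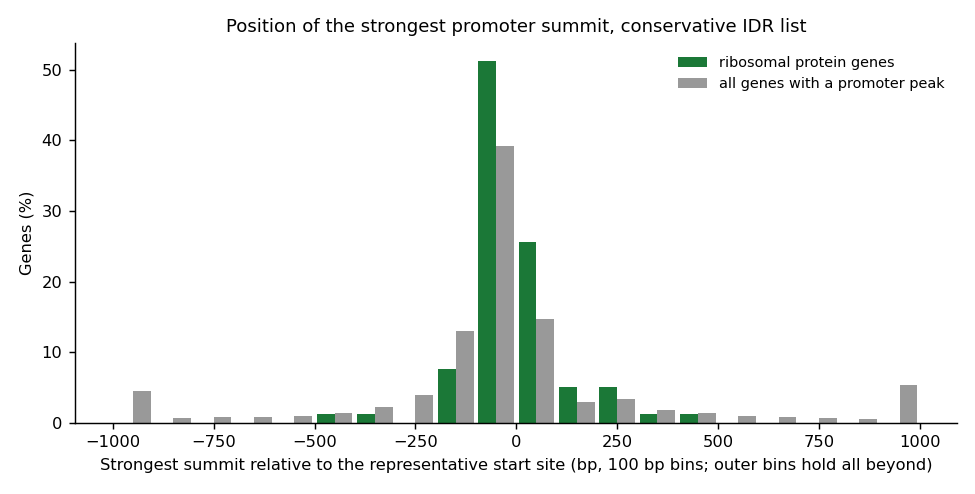
Position of the strongest promoter summit relative to the representative start site (bp) for open ribosomal protein genes and for all genes with a promoter peak, as a share of genes (%) in 100 bp bins. The outermost bins also hold positions beyond them. The bin from 100 bp upstream to the start holds 51.28% of the members and 39.21% of all open genes.

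Open regions at members were about as wide as elsewhere, although the genes themselves are short. The merged region at the strongest summit had a median width of 894 bp (range 530 to 1552), against 876 bp for all open genes, and both had a median of 2 summits per promoter. The median gene length was 3.27 kb for members and 17.38 kb for all genes. The widest regions were at Rps29 (1552 bp, 6 summits), Rpl10 (1513 bp) and Rpl7 (1448 bp).

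Sequence around the start sites was compared with that of all genes. In the window from 250 bp before to 50 bp after the representative start, open members had a median GC content of 55.8% and a CpG ratio (observed over expected) of 0.85, against 60.3% and 0.76 for all open genes. TATAAA, searched on the sense strand 40 to 15 bp before the start, was in no member, against 1.01% of open genes and 2.65% of all genes. Motifs elsewhere were searched as exact letters on both strands, and a match is not evidence of binding.

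The ETS core CCGGAAG was in 25 of 82 member windows (30.5%), against 11.1% of all genes. Among open promoters it was in 24 of 78 members (30.8%), against 18.6% of open genes, and within 100 bp of the strongest summit in 27 of 78 (34.6%), against 18%. In the 24 open members the closest match to the summit lay a median of 61 bp from it, against 52 bp for the 2105 open genes with a match. Members with and without the core had median signals of 10.54 (24 open) and 10.10 (54 open). Rps21 held the core at more than 1 place in its upstream window, and in that window of Rplp2, Rps7 and Rps10 it ran on the opposite strand.

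The ZBTB33 element was in 6 of 82 member windows (7.32%), against 0.599% of all genes and 1.03% of open genes. Among them were Rps6, the target of S6 kinase, Rps28, Rpl4, Rpl17 and Rpl26. All 6 were open, as were 95.1% of all members. Their median signal was 9.91, against 10.16 for the 72 other open members. Within 100 bp of the summit it was in 8 of 78 (10.3%), against 1.15%. Rps6 and Rpl26 had the ETS core as well.

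The other motifs had the following shares in members and in all genes. The YY1 motif AAGATGGC was in 5 (6.1%) and 3.07%: Rpl18, Rpl23a, Rpl35a, Rps15a and Rps27. The cAMP response element TGACGTCA was in 5 (6.1%) and 2.5%, and the ZNF143 motif in 2 (Rpl23a and Rps27a, 2.44%) and 0.43%. Among open promoters the YY1 motif was in 6.41% of members and 4.8% of genes. The cAMP response element was there in 6.41% and 3.68%, and the ZNF143 motif in 2.56% and 0.759%. The GC box GGGCGG was in 43 (52.4%) and 45.3%, below the 64.2% of open genes. CCAAT was in 26 (31.7%) and 38.6%, and the NRF1 motif GCATGCGC in 3 (3.66%) and 3.72%. The E-box CACGTG was in 9 (11%) and 7.72%, and among open promoters in 11.5% of members and 10.2% of genes. Within 100 bp of the summit its order turned, with 5.13% of open members and 8.56% of open genes. The NRF1 motif there was in 5.13% of open members and 4.33% of open genes, while in the start window it was in 3.85% of open members and 5.48% of open genes.

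**Figure D5:**
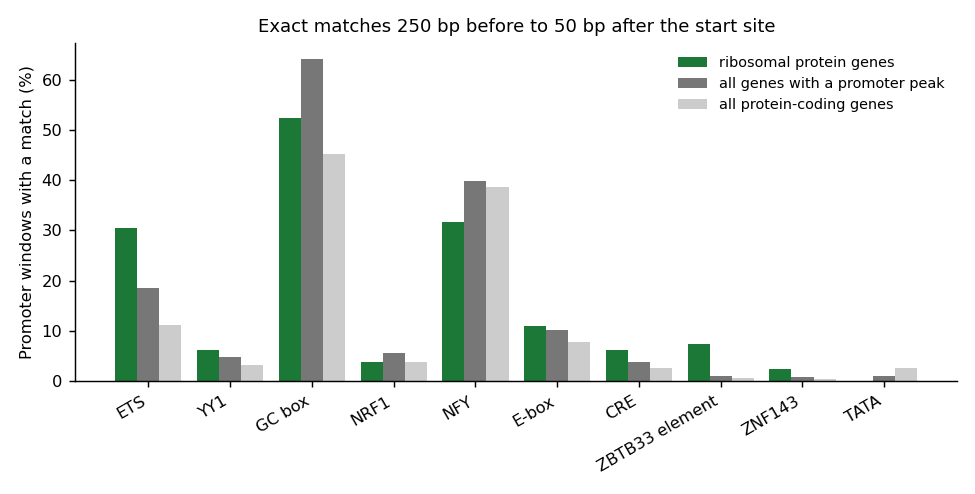
Share of promoter windows (%) with an exact match to each motif, for ribosomal protein genes, all genes with a promoter peak and all protein-coding genes. The ETS core stands at 30.5%, 18.6% and 11.1%, and the ZBTB33 element at 7.32%, 1.03% and 0.599%.

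TOP-like starts were read from the genome at the annotated start sites. A C followed by at least 4 pyrimidines began within 20 bp of the representative start in 58 of 82 members (70.7%), against 49.2% of all genes. Exactly at the annotated start it was in 9 members (11%), against 2.28%. Of the 9, 8 are shown with 10 bases before the start and 15 from it, the tract from the start in capitals as far as the window reaches, because their annotated start has the form of a TOP mRNA. Of these, Rps27rt had no promoter peak, and the others had signals from 5.92 (Rpl36) to 11.46 (Rpl37). The windows are Rpl37a at chr1:72711280-72711304 (+), Rps21 at chr2:180257367-180257391 (+), Rpl32 at chr6:115808733-115808757 (-), Rpl4 at chr9:64173365-64173389 (+), Rps24 at chr14:24490708-24490732 (+), Rpl37 at chr15:5116635-5116659 (+), Rpl36 at chr17:56613406-56613430 (+) and Rps27rt at chr9:114982725-114982749 (-):
Rpl37a: gcgtcccttcCTCTTCggacttggg
Rps21: cgaggacccgCCCTCCTgcccaata
Rpl32: gccgccgcctCTTCCTTCTTCCTCg
Rpl4: caagtctttcCTTTTCCTgtgggag
Rps24: gtgagcggtcCTCTTTTCCTCCTCT
Rpl37: ggggtgctttCTCTTCCggtctctt
Rpl36: cggtgccgttCTTCCTgtcccggcc
Rps27rt: ttatcccttgCTTTCCggcggtgac

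Some members share their open promoter with another gene. An opposite-strand protein-coding start lay at most 1 kb upstream of 14 members (17.1%), against 9.87% of all genes. All 14 were open, as were 95.1% of all members. Their median signal was 9.31, against 10.26 for the 64 other open members. The closest pairs were Rps28 with Ndufa7, a complex I subunit gene (10 bp), Rps27 with Rab13 (44 bp), Rpl9 with Lias (53 bp) and Rps2 with Rnf151 (53 bp). A peak between such starts cannot be assigned to either gene.

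Many members also hold small nucleolar RNA genes, whose products guide the modification of ribosomal RNA. A total of 56 annotated snoRNA genes lay within 29 members (35.4%) on the same strand, against 1.17% of all genes with at least 1. All 29 were open, as were 95.1% of all members. Their median signal was 10.60, against 10.07 for the 49 other open members. Rpl4 held 5 and Rpl13a held 4.

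Most members had a distal region nearby, as did most genes. A distal region, with its summit more than 1 kb from every protein-coding start and within 50 kb of the member, was present for 62 of 82 members (75.6%) in the conservative list, against 61.9% of all genes, and the shares were 78.2% for mitochondrial ribosomal proteins and 80% for proteasome subunits. The 148 regions had a median signal of 7.49, against 7.96 for all 20306 distal regions. A member was the nearest protein-coding gene in 43 of the 152 pairings of a member with a region, which involved 28 members. Of the 148 regions, 72 overlapped a region of both replicates' IDR lists, 50 of replicate 1's only, 11 of replicate 2's only and 15 of neither.

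Rps14 had the most distal regions, with 8, of which 5 lay upstream and 3 downstream of the nearest of its annotated starts. The search reached 50 kb from every annotated start, so it spanned more sequence at genes with widely spaced starts. Rps14 has 8 annotated starts in a gene of 31.45 kb, so its count is not on an equal footing with the others. The strongest, with a signal of 9.84, lay at -2340 bp from an alternative start of Rps14, inside the gene Ndst1. Another of the 5 (7.12) lay at -7234 bp from a later start, inside Rps14 itself and so downstream of its first start. Rplp0 had 6, all of which had another gene as the nearest, with 4 inside Pxn and 2 inside Gcn1l1. Rpl32, Rps19 and Rpl14 had 5 each. The strongest region for which the member was the nearest gene was at chr13:90967506-90967931, 44703 bp downstream of Rps23 and inside Atg10 (12.78 in the conservative list, 12.60 in replicate 1 and 9.28 in replicate 2). Next came a region 13897 bp downstream of Rps26 at 12.69, a region at -5918 bp from Rps21 at 11.76 and a region 11352 bp downstream of Rpl14 at 11.70. Which gene such a region acts on was not tested.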

How the data were processed

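ATAC-seq peaks of 2 libraries in 1 group were read from 8 lists made by ENCODE on mm10, per the labels. Aligner, peak caller and any shift for the transposase were not given in the sources used here. Peak signal is as deposited by the authors, with control and scaling not stated. Of the 53241 conservative peaks, 53170 stand unaltered in the pseudoreplicated list of both replicates, so that list's signals come from calls on both libraries. The 4 ranked lists were not used.

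Genes came from GENCODE M21, and sequence from RefSeq GRCm38.p6, the same assembly as mm10. The representative start was that of the transcript ranked first by CCDS membership, then APPRIS rank and support level. A gene's signal was that of its strongest promoter peak. Overlapping peaks were merged into regions for widths and distal calls. The comparisons are descriptions with no test: there is no contrast between groups, and the 2 libraries may be technical in their spread. The members and lists were chosen with earlier results of these data known. Named members are the 10 of highest and 6 of lowest conservative signal, those with no peak or a peak in 1 replicate's IDR list only, the listed paralogues, stalk and Diamond-Blackfan genes and genes just outside the symbol rule. Members with 3 or more distal regions were also to be named. They numbered 27 (32.9% of members, against 21.7% of all genes), so those given are among those with 5 or more. A few genes that meet these rules are not reported here. Rps4l is annotated as a pseudogene, Rps23rg1 did not match a symbol, and genes named outside this rule were picked with their values known. Promoter and distal calls were tested on simulated data. Alternatives were the other lists, each replicate alone, above-median signal, other windows, start sites and motif windows, and a wider symbol rule. Python 3.11.15, pandas 2.3.3, numpy 2.4.6, scipy 1.17.1 and matplotlib 3.10.9 were used.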

Additional observations from a re-analysis of the deposited data

How the results depend on the processing

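Of 74 values under alternative settings, 6 moved by more than 1.5 times, and the causes were not tested. The other 68 are weak evidence of stability: a count of 78 of 82 cannot grow by 1.5 times, nearly all conservative peaks stand unaltered in the pseudoreplicated list of both replicates, and the tolerance for the median signal came from the replicates' own medians. The count of members with a nearby distal region was 24 with a 10 kb limit, against 62 with 50 kb. The count with a TOP-like start was 9 exactly at the annotated start, against 58 within 20 bp. In the narrower motif window (100 bp before to 50 bp after the start) the NRF1 motif was in 1 member, against 3, and the E-box in 3, against 9. Within 100 bp of the summit the E-box was in 4, and the ZNF143 motif in 1, against 2. With 1 replicate at a time, the count of members with a promoter peak was 74 to 78, their median signal 7.67 to 11.36 and the count with a distal region 51 to 67. Peaks above the list's median signal alone left 76 members with a promoter peak, and the most upstream start alone left 73. The use of each replicate's pseudoreplicated list for presence in both replicates and for the rank correlation was chosen after seeing the data. No paired analysis was possible because there is 1 group. Read depth is unknown, so a missing peak does not show that a promoter was inaccessible.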
